A study of Mus musculus with 6 samples.

Results

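Ldha, Slc16a3, Pdk1, Me3 and Car9 are genes of lactate production, lactate export, pyruvate fate and acid handling. They were taken by gene symbol, all 5 were in the deposited table of the mouse ileum, and that table lists 923 genes. Bulk RNA-seq of whole ileum compared 3 Hif1α LSL/LSL;VilERcre mice with 3 Hif1α LSL/LSL mice, called flox controls. Both groups carried the LSL-HIF1 dPA allele, a HIF-1α transgene behind a floxed stop cassette, on a C57BL/6 background, and both received tamoxifen. The first group also carried villin-creERT2, a Cre that is driven by an epithelial promoter and is active after tamoxifen, while the flox controls were littermates without Cre. By the labels each group had 2 males (replicates 1 and 2) and 1 female (replicate 3), whereas the paper's text calls the mice male. The sources used here tie no diet or age to these 6 mice.

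Glycolysis ends in pyruvate. Lactate dehydrogenase A (Ldha) reduces pyruvate to lactate and regenerates NAD+, and the monocarboxylate transporter MCT4 (Slc16a3) carries lactate together with a proton out of the cell. Pyruvate dehydrogenase kinase 1 (Pdk1) phosphorylates and inhibits pyruvate dehydrogenase, the enzyme that passes pyruvate on to the citric acid cycle. Mitochondrial NADP-dependent malic enzyme (Me3) makes pyruvate from malate. Carbonic anhydrase 9 (Car9) sits on the cell surface and converts CO2 to bicarbonate and a proton outside the cell. Ldha, Slc16a3, Pdk1 and Car9 are textbook targets of HIF-1, which pairs with ARNT and binds a short core motif in DNA. The intestinal epithelium borders a lumen that is poor in oxygen, and HIF signalling is known to be active in it under normal conditions.

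All listed genes had an unadjusted p under 0.05 in the authors' own test, so counts and fold changes over listed genes lean high, and genes outside the table were not analysed here. The fits also took the spread between mice from these selected genes alone. Their SEs, intervals and p-values may therefore be too small, and adjustment over more genes does not correct for this. Library totals implied by the deposited values were 18918341 to 24905343 fragments. Hif1a itself was at 534.9 to 741.3 normalized counts in VilERcre libraries, against 740.5 to 1185 in flox controls, and was thus not higher in VilERcre ileum. The sources used here do not say whether reads of the transgene count towards Hif1a, so this gene does not check the labels. Of 8 enterocyte markers, 1 was listed, Fabp6, the ileal bile acid binding protein, with at least 33689 normalized counts in every library. Markers of other cells that were listed were Acta1 of skeletal muscle (1 of 12 markers; 587 to 950 normalized counts in VilERcre libraries, against 137 to 281 in flox controls), 2 of 5 erythroid markers (summed 23.3 to 58.9 in VilERcre libraries, against 59.3 to 206 in flox controls) and 3 of 6 B cell markers (summed 17.5 to 46.8 against 75.9 to 265). The markers of goblet, Paneth, smooth muscle, myeloid, T, fibroblast and endothelial cells were not listed. The part of these cells in the results for the 5 genes was not tested.

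The promoter sequences are shown because the core of the HIF binding site can be looked for in them. They come from RefSeq on GRCm38.p6, which held an entry for all 5 genes, and run on the plus strand, 5′ to 3′, through 150 bases before the gene start and 30 bases from it. The start is that of RefSeq and lies inside the gene span of the deposited table for Ldha, Slc16a3, Car9 and Me3. Ldha and Pdk1 had 2 windows each, of which the first is shown. Capitals mark each ACGTG or GCGTG on either strand, so that on the other strand they read CACGT or CACGC.
Ldha promoter (chr7:46845654-46845833): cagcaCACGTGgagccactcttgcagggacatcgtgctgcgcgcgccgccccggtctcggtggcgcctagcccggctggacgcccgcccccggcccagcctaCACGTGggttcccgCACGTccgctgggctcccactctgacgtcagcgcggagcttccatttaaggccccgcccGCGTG
Slc16a3 promoter (chr11:120948917-120949096): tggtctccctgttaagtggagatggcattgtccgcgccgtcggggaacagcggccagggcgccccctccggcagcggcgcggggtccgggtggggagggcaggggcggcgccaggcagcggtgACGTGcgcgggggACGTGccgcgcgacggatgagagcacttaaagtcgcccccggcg
Pdk1 promoter (chr2:71873074-71873253): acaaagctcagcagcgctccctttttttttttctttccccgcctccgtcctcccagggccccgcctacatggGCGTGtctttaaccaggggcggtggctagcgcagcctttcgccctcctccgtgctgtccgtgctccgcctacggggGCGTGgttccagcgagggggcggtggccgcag
Car9 promoter (chr4:43506876-43507055): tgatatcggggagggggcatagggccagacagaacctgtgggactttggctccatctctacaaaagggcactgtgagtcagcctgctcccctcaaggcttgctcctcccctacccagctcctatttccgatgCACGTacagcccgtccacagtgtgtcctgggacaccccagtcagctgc
Me3 promoter (chr7:89632668-89632847): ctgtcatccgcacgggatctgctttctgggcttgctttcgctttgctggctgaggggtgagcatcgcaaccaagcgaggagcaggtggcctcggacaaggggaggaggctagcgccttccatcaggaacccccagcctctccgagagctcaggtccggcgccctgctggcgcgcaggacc

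In the whole window of 300 bases, from 250 bases before the start to 50 after it, Slc16a3 held ACGTG at 27 and 14 bases before the start. Ldha held the palindrome CACGTG in 2 places, which counts as ACGTG on both strands and is also the E-box, and it held 7 matches in all, 6 of them within the bases shown. Its second window held 2 matches of GCGTG. Pdk1 held GCGTG at 78 and 2 bases before the start and no match in its second window. Car9 held a single ACGTG on the other strand, 18 bases before the start. Me3 held neither motif. Thus 4 of 5 genes had at least 1 match, and 3 of 5 had ACGTG. Either motif was present in 46.7% of 27025 mouse genes with a promoter entry, and ACGTG in 21.8%. Among tested listed genes with a promoter entry the shares were higher, with either motif in 63.5% of 260 genes above their flox level and 54.3% of 208 below it, and ACGTG in 37.3% and 24.0% of them. A match describes letters in a window and says nothing on binding.

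**Figure D1:**
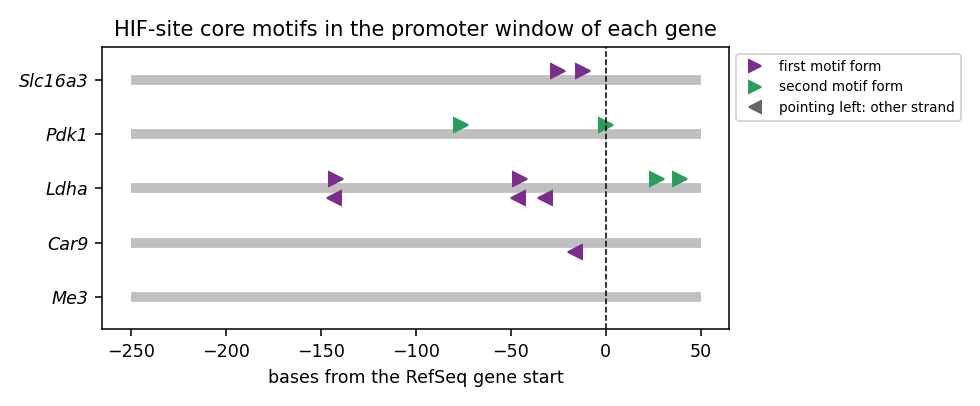
Map of the core motif in the 300-base promoter window of each gene, by bases from the RefSeq gene start (horizontal axis). Triangles are matches of ACGTG (first form, purple) or GCGTG (second form, green), pointing left on the other strand; Ldha has 7 matches, Slc16a3 and Pdk1 have 2 each, Car9 has 1 and Me3 has none.

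Slc16a3 and Pdk1 were significantly higher in VilERcre ileum, and no gene of the 5 passed in the other direction. Across the 696 listed genes kept for the test, 2.87% were called, 2.73% higher and 0.144% lower. Ldha and Car9 had fold changes above 1, and Me3 below 1, without passing the threshold on the adjusted p. Before adjustment all 5 had an edgeR p under 0.05, 4 of them higher and 1 lower, beside 44.1% of tested genes higher and 35.8% lower. DESeq2 called 3 of the 5 higher (Slc16a3, Pdk1 and Ldha) and 1 lower (Me3), beside 8.48% and 1.72% of tested genes. In normalized counts and in FPKM the groups did not overlap for any of the 5 genes, and the same held for 76.3% of the tested genes, 41.4% with VilERcre ileum higher and 34.9% with it lower. Adjusted p-values are from edgeR's quasi-likelihood test unless DESeq2 is named, and the Benjamini-Hochberg adjustment covered 19204 genes. In bulk tissue, fewer cells of a type and less RNA per cell cannot be told apart.

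Ldha (ENSMUSG00000063229, chr7:46841475-46855627 on GRCm38, plus strand, protein coding like the other 4) was the most abundant of the 5. It reached 543, 520.4 and 419.5 FPKM in VilERcre libraries 1 to 3, against 239, 314 and 218 FPKM in flox control libraries 1 to 3. The lowest VilERcre library was 1.33 times the highest flox library. The mean was 494 ± 65.9 FPKM against 257 ± 50.5 FPKM (SD, n = 3 each). The log2 fold change was 0.95 (SE 0.19, 95% interval 0.54 to 1.37), with an adjusted p of 0.276 by edgeR. In normalized counts the fold was 1.94 between the females and 1.93 between the means of the males. By mean FPKM among the 923 listed genes, Ldha ranked 11 in VilERcre ileum and 15 in flox ileum. DESeq2 on the same counts gave Ldha an adjusted p of 0.000112, so the call depends on the tool.

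Slc16a3 (ENSMUSG00000025161, chr11:120948480-120960868, plus strand), the exporter, had the largest fold of the 5. It reached 5230, 4452 and 3808 normalized counts in VilERcre libraries 1 to 3, against 308, 419.9 and 276 in flox libraries 1 to 3. Even the lowest VilERcre library held 9.07 times the count of the highest flox library. Per length this was 38.2 ± 5.93 FPKM in VilERcre ileum and 2.86 ± 0.659 FPKM in flox ileum (SD, n = 3 each). The log2 fold change was 3.75 (SE 0.20, 95% interval 3.29 to 4.21), with an adjusted p of 0.000176 by edgeR. It had the smallest p of the 696 tested genes. By mean FPKM it ranked 91 among listed genes in VilERcre ileum and 435 in flox ileum. In normalized counts the fold was 13.8 between the females and 13.3 between the means of the males. Slc16a3 passed the threshold in all 17 alternative fits, with log2 fold changes of 3.35 to 3.95.

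Pdk1 (ENSMUSG00000006494, chr2:71873224-71903858, plus strand), the inhibitor of pyruvate dehydrogenase, was at 7.31, 9.08 and 8.29 FPKM in VilERcre libraries 1 to 3, against 4.17, 2.96 and 3.11 FPKM in flox libraries 1 to 3. All VilERcre libraries lay above all flox libraries, and the nearest pair differed 1.75-fold. The mean was 8.23 ± 0.885 FPKM against 3.41 ± 0.662 FPKM (SD, n = 3 each), with a log2 fold change of 1.28 (SE 0.17, 95% interval 0.89 to 1.66, adjusted p = 0.0321 by edgeR). The call was narrow. By edgeR it was lost with TMM scaling over the listed genes (adjusted p = 0.0927) and with sex added to the model (adjusted p = 0.0770). The call was lost among the males alone (adjusted p = 0.934 by edgeR) and with limma (adjusted p = 0.186 and 0.179 at 2 pseudocounts). It was also lost without any 1 of VilERcre replicates 1, 2 or 3 or flox replicates 2 or 3, where the adjusted p reached up to 0.243 by edgeR. Without flox replicate 1 it was kept (adjusted p = 0.0246). The log2 fold change ranged from 1.18 to 1.46 over the 6 fits that left out 1 library.

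Me3 (ENSMUSG00000030621, chr7:89632392-89854359, plus strand) was the least abundant of the 5 and the only one lower in VilERcre ileum. Its counts were 159, 168 and 168 fragments in VilERcre libraries 1 to 3, against 323, 352 and 392 fragments in flox libraries 1 to 3. In FPKM this was 0.539 ± 0.0753 in VilERcre ileum and 1.03 ± 0.104 in flox ileum (SD, n = 3 each). These levels rest on the union of all its exons, 14624 bases. With the longest protein-coding transcript (4485 bases), a length tried after seeing the data, they were 1.76 ± 0.246 and 3.37 ± 0.338 FPKM. The log2 fold change was -0.93 (SE 0.20, 95% interval -1.39 to -0.47), with an adjusted p of 0.461 by edgeR, while DESeq2 gave 0.0152. With limma on log2(FPKM + 1) the difference was -0.40, on a scale that compresses levels this low. Of its exonic bases, 3.89% also lie in A230065N10Rik on the opposite strand. It is not known whether fragments were counted by strand, and reads of the 2 genes may therefore not be told apart there.

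Car9 (ENSMUSG00000028463, chr4:43506966-43513729, plus strand) had the smallest log2 fold change of the 5 in size. It was at 30.1, 30.4 and 23.2 FPKM in VilERcre libraries 1 to 3, against 20.3, 18.1 and 15.1 FPKM in flox libraries 1 to 3. The female VilERcre library, the lowest of its group, exceeded the highest flox library 1.15-fold. In raw counts the groups overlapped, with 1013 to 1643 fragments in VilERcre libraries against 809 to 1054 in flox libraries. The mean was 27.9 ± 4.02 FPKM against 17.8 ± 2.61 FPKM (SD, n = 3 each), with a log2 fold change of 0.65 (SE 0.17, 95% interval 0.28 to 1.03, adjusted p = 0.734 by edgeR). Of its exonic bases, 9.29% overlap Gm12454 on the opposite strand. Of windows as long as a read (150 bases) along the annotated transcripts, 0.523% of those of Car9 and 1.87% of those of Me3 recurred in these overlapping genes, and 0% of those of Ldha, Slc16a3 and Pdk1 recurred in any other gene.

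**Figure D2:**
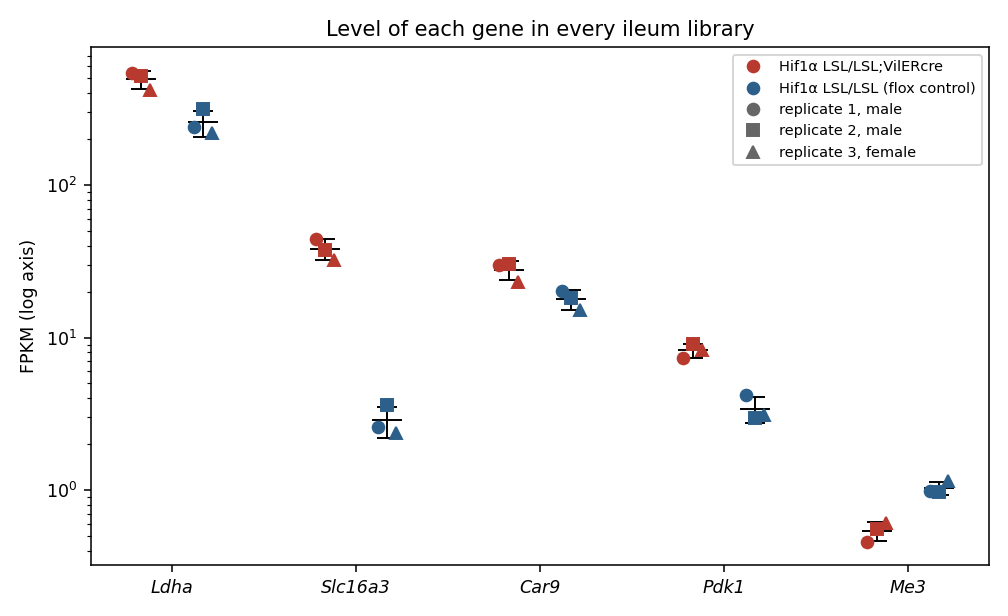
Level of each gene in FPKM (vertical log axis) in the 3 VilERcre libraries (red, left) and the 3 flox control libraries (blue, right), with the mean and SD in black and the marker shape giving the replicate. The groups do not overlap for any gene; Slc16a3 lies at 32.5 to 44.3 FPKM in VilERcre libraries and at 2.37 to 3.61 FPKM in flox libraries.

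Ldha and Slc16a3 ordered the libraries of each group alike. In both groups the female library had the lowest FPKM of Ldha, Slc16a3 and Car9 and the highest of Me3, while its Pdk1 lay between the males. With 1 female in each group, sex and the individual mouse cannot be told apart. Counting error was smaller than the spread between libraries for Ldha, Slc16a3, Pdk1 and Car9, with a largest Poisson coefficient of variation of 0.771% for Ldha, 5.84% for Slc16a3, 4.22% for Pdk1 and 3.52% for Car9. For Me3 it was 7.93%, against a spread of 14.0% over VilERcre libraries and an SD of 32.1 around a mean of 332 normalized counts over flox libraries. 

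**Figure D3:**
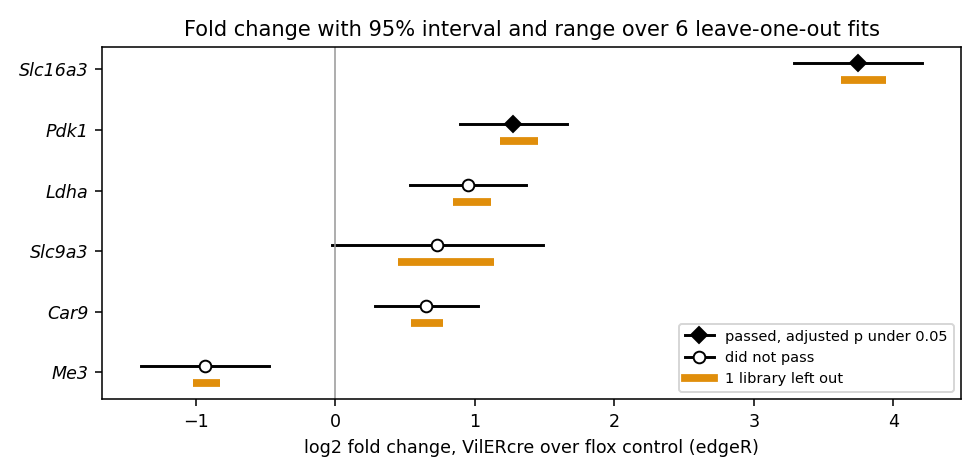
Log2 fold change of VilERcre over flox control (horizontal axis, edgeR) with its 95% interval in black and, in orange, the range over the 6 fits that leave out 1 library. Filled diamonds passed an adjusted p of 0.05 (Slc16a3 at 3.75 and Pdk1 at 1.28) and open circles did not; only Me3, at -0.93, lies below 0.

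Lactate production and export were set side by side within each library. Ldha was 12.3, 13.8 and 12.9 times Slc16a3 per length in VilERcre libraries 1 to 3, against 92.0, 87.1 and 92.2 times in flox libraries 1 to 3. The mean ratio was 13.0 ± 0.761 in VilERcre ileum and 90.4 ± 2.89 in flox ileum (SD, n = 3 each), a 6.97-fold lower ratio. The ratio varied by 5.86% (coefficient of variation) over VilERcre libraries and by 3.19% over flox libraries. The single genes varied by 13.3% (Ldha) and 15.5% (Slc16a3) over VilERcre libraries, and by 19.6% and 23.1% over flox libraries. Within a group, the ratio thus varied less from library to library than either gene. Library scaling cancels out of such a ratio, which is one of mRNA and not of protein or flux.

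Exact permutation tests of 3 against 3 libraries cannot give a p below 0.1. Of the 6 pairs of genes with at least 1 FPKM in both groups, 4 reached this smallest p (0.15 after adjustment over the 6 pairs). They were Ldha over Slc16a3, Slc16a3 over Car9, Slc16a3 over Pdk1 and Car9 over Pdk1. No pair can therefore be called at 0.05. In these 4 pairs the groups did not overlap, as they did not for 76.3% of the tested genes taken singly. The share over other pairs of listed genes was not computed.

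Per length, Slc16a3 stood above Car9 in every VilERcre library and below it in every flox library. The ratio of Slc16a3 to Car9 was 1.47, 1.24 and 1.40 in VilERcre libraries 1 to 3, against 0.128, 0.200 and 0.157 in flox libraries 1 to 3. The log2 difference was 3.11, with a pooled SD of 0.24. Slc16a3 over Pdk1 was 4.71 ± 1.17 in VilERcre ileum and 0.868 ± 0.311 in flox ileum (SD, n = 3 each), a log2 difference of 2.47.

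The carbonic anhydrase gene stood above the kinase gene in every library, by less in VilERcre ileum. Car9 was 4.11, 3.34 and 2.80 times Pdk1 in VilERcre libraries 1 to 3, against 4.86, 6.11 and 4.86 times in flox libraries 1 to 3. The groups did not overlap, and the log2 difference was -0.63 with a pooled SD of 0.24.

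For the other 2 pairs the groups overlapped. Ldha over Pdk1 was 60.7 ± 12.2 in VilERcre ileum and 77.9 ± 25.2 in flox ileum (SD, n = 3 each; exact permutation p = 0.4). Ldha over Car9 was 17.8 ± 0.535 in VilERcre ileum and 14.5 ± 2.79 in flox ileum (SD, n = 3 each; exact permutation p = 0.2). The log2 difference was -0.33 (pooled SD 0.38) for Ldha over Pdk1 and 0.31 (pooled SD 0.20) for Ldha over Car9.

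**Figure D4:**
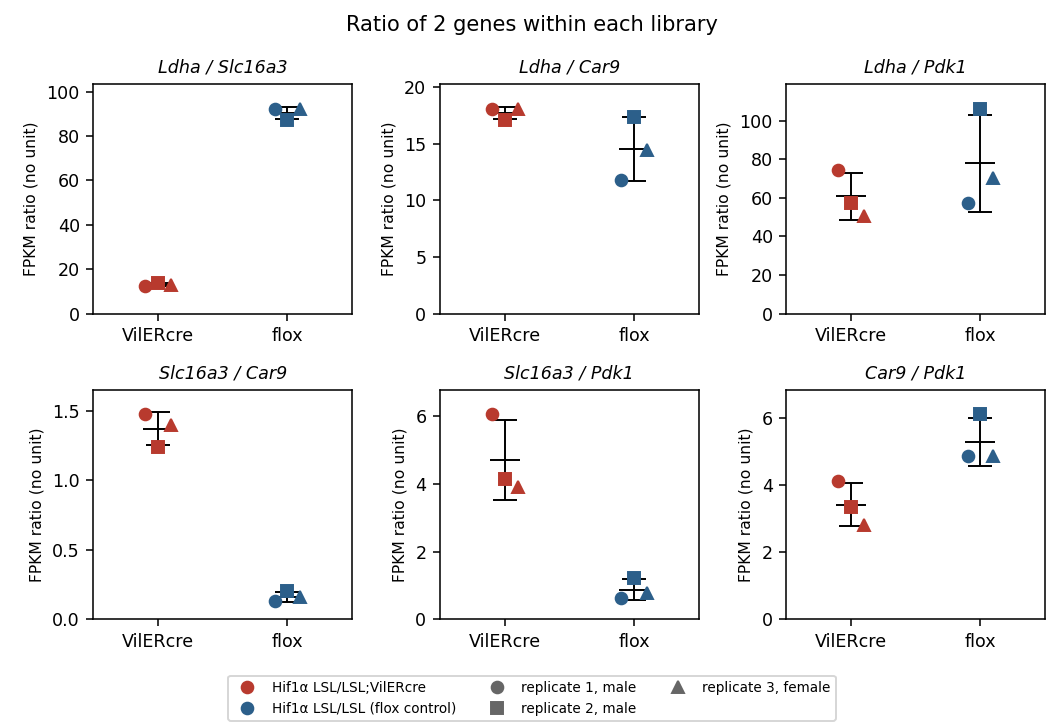
Ratio of the FPKM of 2 genes within each library (vertical axis, linear from 0) for 6 pairs, VilERcre libraries in red on the left and flox control libraries in blue on the right, with mean and SD in black. Ldha over Slc16a3 is 12.3 to 13.8 in VilERcre libraries and 87.1 to 92.2 in flox libraries, while Ldha over Pdk1 and Ldha over Car9 overlap between the groups.

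As shares of the summed FPKM of the 5 genes, Ldha made up 86.8 ± 0.175% in VilERcre ileum and 91.0 ± 1.47% in flox ileum (SD, n = 3 each). Slc16a3 made up 6.70 ± 0.385% against 1.01 ± 0.0477%. Car9 made up 4.89 ± 0.158% against 6.40 ± 1.14%, and Pdk1 1.47 ± 0.275% against 1.24 ± 0.347%. Me3 made up 0.0970 ± 0.0264% against 0.377 ± 0.0983%, with its level again set by the exon union. The sum itself was 569 ± 75.0 FPKM in VilERcre ileum and 283 ± 51.6 FPKM in flox ileum. In absolute terms Ldha added 237 FPKM, Slc16a3 35.3 FPKM, Car9 10.1 FPKM and Pdk1 4.81 FPKM.

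Relatives of these genes in the table were counted, where 923 genes were listed and the authors adjusted p over 19204. Apart from Slc9a3, the listed ones were the 5 genes themselves, so these counts are no separate result. Of 15 genes of lactate production and transport, 2 were listed, Ldha and Slc16a3, of which edgeR called 1 higher (2.73% of all tested genes) and DESeq2 called both higher (8.48% of all tested genes). Of 22 genes of pyruvate fate, 2 were listed, Pdk1 and Me3, of which edgeR called 1 higher, and DESeq2 called 1 higher and 1 lower (1.72% of all tested genes were called lower by DESeq2). Of 32 genes of acid and bicarbonate handling, 2 were listed, Car9 and Slc9a3, and 0 were called in either direction by edgeR or by DESeq2, with 1 of them (Car9) at an unadjusted edgeR p under 0.05. Slc9a3, the sodium/proton exchanger NHE3 of the enterocyte brush border, was at 309.6, 301 and 479 normalized counts in VilERcre libraries 1 to 3, against 125, 205 and 326 in flox libraries 1 to 3. The groups overlapped, with the female library highest in both, and the log2 fold change was 0.73 (SE 0.34, adjusted p = 1 by edgeR).

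By Pearson's r of log2 normalized counts over the 6 libraries, the genes most like each member were taken from 485 other listed protein-coding genes. The groups are shared by all points, so any gene that differs between them scores high, and r says nothing on the size of a difference. Reads shared with copies of glycolytic genes such as Eno1 and Pgam1 were not checked. Of the 485 genes, 9 had an r above 0.99 with Slc16a3, 1 with Ldha, 2 with Car9 and 0 with Pdk1 or Me3. The 3 named for Slc16a3 thus head a group of near ties. Slc16a3 was nearest to Keap1, the sensor of NRF2 (r = 0.999), the adaptor gene Apba3 (r = 0.998) and enolase, Eno1 (r = 0.996), although Keap1 itself averaged 1663 normalized counts in VilERcre ileum against 926 in flox ileum. Ldha was nearest to the glycolytic enzymes Aldoa (r = 0.991) and Tpi1 (r = 0.989) and to the myosin light chain Myl7 (r = 0.984). Pdk1 was nearest to the mitochondrial adenylate kinase Ak4 (r = 0.985), Parp9 (r = 0.983) and the glycolytic mutase Pgam1 (r = 0.982). Me3 was nearest to the orphan receptor Gprc5c (r = 0.989), Agmo (r = 0.980) and the retinoic acid hydroxylase Cyp26b1 (r = 0.974). Car9 was nearest to the cytochrome P450 Cyp2s1 (r = 0.995), the ribonuclease Zc3h12a (r = 0.993) and Bcl3 (r = 0.984).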

How the data were processed

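Polyadenylated RNA of whole ileum was sequenced as read pairs of 150 bases. Per the labels and methods, the authors aligned reads to GRCm38 with HISAT2 2.0.5, and featureCounts assigned fragments to genes. The counts the authors deposited are raw. Another set of deposited values is a normalized signal, the counts over 1 size factor per library (normalized counts in the text). The last is FPKM, for which the authors scaled by exon length and depth. The deposited p-values and log2 fold changes hold the authors' DESeq2 comparison; they served only to learn that the table was selected on p and that 19204 genes were adjusted over, unlisted genes being taken to have larger p-values.

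The 3 VilERcre and 3 flox libraries were compared with edgeR 4.0.16 (R 4.3.3) on the counts of the 696 genes kept by filterByExpr, scaled by the deposited size factors, with no covariate, two-sided, at an adjusted p of 0.05. On simulated counts the script was checked for recovery of known changes. The simulation took its spread from the listed genes and did not select on p, so it does not check p-values or intervals for a selected table. The replicates are separate mice, and the p-values of the fits rest on the spread between them, estimated over tested listed genes alone. Ratios used FPKM and two-sided exact permutation tests. Alternatives were TMM scaling, library totals implied by FPKM, no filter, a robust quasi-likelihood fit, DESeq2 1.42.0, and limma 3.58.1 on log2(FPKM + 1) or log2(FPKM + 0.1). The others were sex as a covariate, males only, a replicate block, adjustment over listed genes alone, and each library left out. TMM factors came from the listed genes alone, a set selected on p, and not from the whole transcriptome. Ratios were also taken with 0.1 FPKM added to both genes and from normalized counts per base. The text names the 5 genes, the listed genes of the 3 pathway lists (69 genes), and for each of the 5 the 3 listed genes most correlated with it (mean of at least 50 normalized counts, predicted genes, pseudogenes and receptor segments left out). Members and lists were chosen with earlier results of these data known. Motifs were searched in RefSeq promoter windows.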

Additional observations from a re-analysis of the deposited data

How the results depend on the processing

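Every one of 85 alternative fits of the 5 genes and of 60 alternatives of the 6 ratios kept its direction. Some of them left the value as it was. For fold changes these were the robust fit and the adjustment over listed genes alone, and for ratios normalized counts per base and the replicate block. The genes came from a table selected on p in the same libraries, so a kept direction is a weak check. The 20 calls among listed genes became 71 with DESeq2, 11 with limma at either pseudocount, 1 in males only, 333 when adjusted over the listed genes alone, and 3 to 12 with 1 library left out. The 2 calls in the 3 pathway lists became 1 with TMM over the listed genes, with limma at either pseudocount, with sex as a covariate and in males only. They became 4 with DESeq2, 5 when adjusted over the listed genes alone, and 1 to 2 with 1 library left out. Pdk1 did not pass with TMM (log2 fold change 1.17), limma (1.07 with a pseudocount of 1 FPKM, 1.26 with 0.1 FPKM), sex as a covariate (1.28) or males only (1.21), and ranged from 1.18 to 1.46 with 1 library left out. With DESeq2, Ldha (0.95) and Me3 (-0.93) passed, and over the listed genes alone Ldha (0.95), Me3 (-0.93) and Car9 (0.65) passed. The causes were not tested. Same-numbered libraries of the 2 groups correlated at 0.068, -0.0007 and 0.122 in their deviations from the group means. VilERcre replicates 1 and 3 correlated best with their own number, and replicate 2 with another. Values this near 0 over selected genes cannot decide whether the numbers pair the mice. With the replicate block, 26 genes were called (22 higher, 4 lower), and the pathway lists kept a count of 2. Depth limits Me3 most, with 159 to 392 fragments per library.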

Other observations

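Me3 averaged under 1 FPKM in VilERcre ileum and was therefore outside the rule for ratios, which used the FPKM on the exon union, so its ratios were added after its values had been seen. Pdk1 was 16.0, 16.5 and 13.7 times Me3 in VilERcre libraries 1 to 3, against 4.26, 3.07 and 2.70 times in flox libraries 1 to 3. The groups did not overlap (log2 difference 2.22, exact permutation p = 0.1, the smallest that 3 against 3 libraries allow). Pdk1 and Me3 lay on opposite sides of 0 in their fold changes, so their ratio differed by more than either gene alone.

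The level of a gene per length depends on the length used, and the deposited FPKM used the union of all exons. With the longest protein-coding transcript instead, an alternative added after seeing the data, Me3 lay above 1 FPKM in both groups. Ldha over Slc16a3 became 19.3 ± 1.13 in VilERcre ileum and 134 ± 4.29 in flox ileum (SD, n = 3 each). Pdk1 over Me3 became 7.07 ± 0.689 in VilERcre ileum and 1.54 ± 0.376 in flox ileum. The log2 difference between groups does not depend on the length.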
